A study of Pleurodeles waltl with 9 samples.

Results

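In the dorsal iris of the Iberian ribbed newt, Pleurodeles waltl, 19 of 295141 transcripts climbed in a pair of steps after removal of the lens, first between the intact eye and 1 day post-lentectomy (dpl) and again between 1 and 4 dpl. The transcripts were chosen by their values in the intact, 1 dpl and 4 dpl libraries. A transcript was included when its lowest 4 dpl value was at least 200 and at least 2 times the highest 1 dpl value plus 1, and when its lowest 1 dpl value was at least 2 times the highest intact value plus 1. The animals were 13 months old. The intact group came from eyes that had kept the lens, and the 1 dpl and 4 dpl groups came from animals whose lens had been removed surgically under anesthesia with tricaine. Each group was deposited as 3 libraries of polyA RNA, and according to the labels the tissue of 4 animals was pooled for each. Intact replicate 3, which the study left out for its alignment rate, was not used to choose the transcripts, so that 8 libraries were used. The deposited values carry the name of TPM (a measure of transcript abundance scaled for transcript length), but each column summed to between 17541441 and 22023432 instead of 1000000. They are therefore given as values of a normalized signal. The number of reads behind each value is unknown.

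Newts rebuild a lost lens from the dorsal iris. After lentectomy, pigment epithelial cells of the iris leave their resting state, re-enter the cell cycle, lose their pigment and form a vesicle that becomes the new lens. The first days after injury are also a period of inflammation, of entry of immune cells into the eye and of remodelling of the extracellular matrix. The sampled times fall into this early period, before a vesicle is seen. A transcript that is higher at 1 dpl and higher again at 4 dpl follows neither a brief injury response that has passed by 4 dpl nor a late onset.

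The deposited table identifies a transcript by an ID alone. IDs that begin with mRNA and IDs assigned by StringTie, a program that assembles transcripts from aligned reads, are used side by side. None of the 295141 IDs, the 19 included, was matched to the 59059 genes of the reference table for the P. waltl assembly aPleWal1.hap1.20221129. The functions of the 19 transcripts, and the cell types that hold them, therefore could not be named here. For the same reason, the label of the tissue could not be checked against marker genes, and no sequence is shown. The transcripts are called by their rank in mean 4 dpl value, from rank 1 (the highest) to rank 19. Those of rank 1 and rank 3 are also given by ID, as mRNA109311 and mRNA143775.

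**Figure D1:**
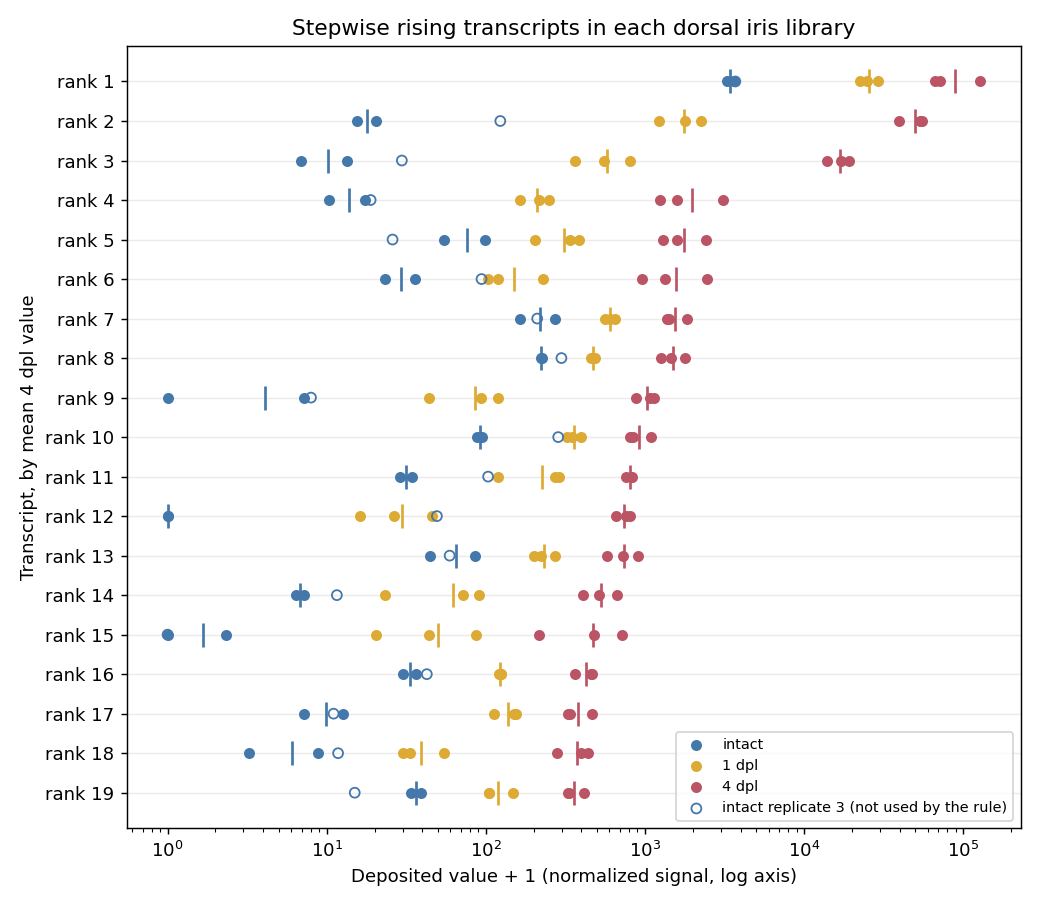
Value of each of the 19 transcripts in each library, as the deposited value plus 1 on a log axis. Filled points are the 8 libraries used to choose the transcripts, vertical bars are group means and open circles are intact replicate 3. In each row the 3 groups are separated by construction, and the 3 topmost transcripts lie above 10000 at 4 dpl, whereas the means of the other 16 lie below 2000.

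The final levels fell far apart. mRNA109311, the transcript of rank 1, had values of 3277 and 3615 in intact replicates 1 and 2, of 22454, 24889 and 29457 in the 1 dpl libraries, and of 127952, 72106 and 66963 in the 4 dpl libraries. Its mean rose from 3446 ± 239 (SD, n = 2) to 25600 ± 3555 (SD, n = 3) and then to 89007 ± 33825 (SD, n = 3). The 4 dpl libraries did not agree closely, and replicate 1 held the highest value. It was already abundant in the intact iris, where it ranked 712 among all transcripts by mean value. It ranked 82 at 1 dpl and 8 at 4 dpl. The first step amounted to 7.43-fold and the second to 3.48-fold.

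Next came the transcript of rank 2, which carries a StringTie ID and started from a low level. It had values of 19.5 and 14.4 in the intact libraries, of 1231, 2251 and 1801 at 1 dpl, and of 54040, 55548 and 39638 at 4 dpl. In the intact iris it ranked 44473 by mean value, at 1 dpl 1614 and at 4 dpl 27. Its mean was 103.6-fold higher at 1 dpl than in the intact iris, and 28.2-fold higher at 4 dpl than at 1 dpl. From intact to 4 dpl this was 2927-fold, the largest ratio among the 16 transcripts for which one could be given.

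mRNA143775, of rank 3, had values of 12.4 and 5.87 in the intact libraries, of 365, 804 and 555 at 1 dpl, and of 19353, 17159 and 14067 at 4 dpl. The steps were 62.7-fold and 29.3-fold. No other transcript of the 19 had a smaller step as large as that of mRNA143775: on the scale of log2(value + 1), on which all step sizes are given below, its first step was 5.83 (standard error 0.39 from limma) and its second 4.93 (standard error 0.35). The lead was small beside this standard error, as the smaller steps of rank 2 and rank 12 were 4.85 and 4.76. For mRNA109311 the steps were 2.89 (standard error 0.24) and 1.74 (standard error 0.21).

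The transcripts of rank 2 and rank 3 stand in consecutive rows of the deposited table, and no other pair of the 19 does. The value of mRNA143775 divided by that of its neighbour was 0.297, 0.357 and 0.308 in the 1 dpl libraries and 0.358, 0.309 and 0.355 in the 4 dpl libraries. In intact replicates 1 and 2 the ratio was 0.637 and 0.406, with values under 20 in both transcripts. In intact replicate 3 it was 0.234, with values of 28.7 and 123, and lay below every ratio at 1 dpl and 4 dpl. The ratios at 1 dpl and 4 dpl thus overlapped, while the means of the pair rose by 28.2-fold and 29.3-fold between these times. Whether these rows describe overlapping sequence, among which Salmon would divide shared reads, was not tested, and they may not be independent measurements.

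After the third transcript the level dropped by 8.48-fold. The 16 others had mean 4 dpl values between 357 and 1987, and 10 of them had means under 1000. Of these, the transcript of rank 4 had values of 16.4 and 9.41 in the intact iris, of 163, 248 and 215 at 1 dpl, and of 1254, 3109 and 1599 at 4 dpl. The transcript of rank 5 had values of 97.7 and 53.8, of 204, 339 and 386, and of 1305, 2414 and 1604 in the same order. For both transcripts, 4 dpl replicate 2 stood above the other 4 dpl libraries. The transcripts of rank 7 and rank 8 were the ones that began highest among the 16, with mean intact values of 218 ± 76.9 (SD, n = 2) and 223 ± 2.004 (SD, n = 2), and they reached 1554 ± 253 (SD, n = 3) and 1512 ± 266 (SD, n = 3). Their final levels differed by less than the spread between libraries.

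A group of 3 transcripts was listed at 0 in at least 1 of intact replicates 1 and 2, and no ratio to the intact level is given for them. The transcript of rank 12 was listed at 0 in both. It had values of 25.6, 45.2 and 15.2 at 1 dpl and of 763, 655 and 802 at 4 dpl. For rank 9, the values were listed at 6.23 and 0 in the intact iris, at 43.2, 119 and 92.8 at 1 dpl, and at 1072, 1142 and 885 at 4 dpl. For rank 15 they were listed at 0 and 1.35, then at 19.5, 85.6 and 43.3, and then at 722, 214 and 480. The last was the most variable of the 19, with a coefficient of variation of 67.6% at 1 dpl and 53.8% at 4 dpl.

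Among the transcripts of lower level, rank 10 had values of 87.6 and 93.9 in the intact iris, of 323, 345 and 398 at 1 dpl, and of 1091, 809 and 843 at 4 dpl. Rank 13 had values of 84.9 and 43.9, then of 222, 200 and 271, and then of 902, 726 and 582. The ranges of this pair overlapped in the 4 dpl group but not in the 1 dpl group. For rank 16, with 29.3 and 35.7 in the intact iris and 458, 365 and 462 at 4 dpl, the steps were 3.77-fold and 3.49-fold. For rank 19, the values were 38.1 and 33.0 in the intact iris, 104, 147 and 104 at 1 dpl, and 328, 332 and 412 at 4 dpl, and the steps were 3.33-fold and 3.02-fold. In rank 13, 16 and 19, the steps differed by less than 0.25 on the log2 scale, whereas in rank 10 the first step was 1.95 and the second 1.35.

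The transcripts of rank 14, 17 and 18 began at values of at most 11.8 in intact replicates 1 and 2. Rank 14 had values of 22.1, 90.3 and 71.1 at 1 dpl and of 515, 410 and 670 at 4 dpl. Rank 18 had values of 53.7, 32.3 and 29.1 at 1 dpl and of 437, 279 and 399 at 4 dpl. In contrast to these, rank 17 was at 112, 149 and 153 by 1 dpl and at 328, 465 and 339 at 4 dpl. From like starting levels, rank 17 thus stood above both others in each 1 dpl library, while at 4 dpl the ranges of rank 17 and rank 18 overlapped.

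Summed over the 19 transcripts, the share of the column total was 0.0214% and 0.0230% in intact replicates 1 and 2. It was 0.132%, 0.155% and 0.160% in the 1 dpl libraries and 1.00%, 0.788% and 0.689% in the 4 dpl libraries. The mean share rose from 0.149% ± 0.0149 (SD, n = 3) at 1 dpl to 0.826% ± 0.159 (SD, n = 3) at 4 dpl. The 3 highest transcripts made up 91.1% of the summed 4 dpl mean, and mRNA109311 alone made up 52.1%. Without these 3, the share was 0.0153% ± 0.0012 (SD, n = 3) at 1 dpl and 0.0739% ± 0.00957 (SD, n = 3) at 4 dpl. In tissue as a whole, more RNA per cell and more cells of a type that holds the transcript cannot be told apart.

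**Figure D2:**
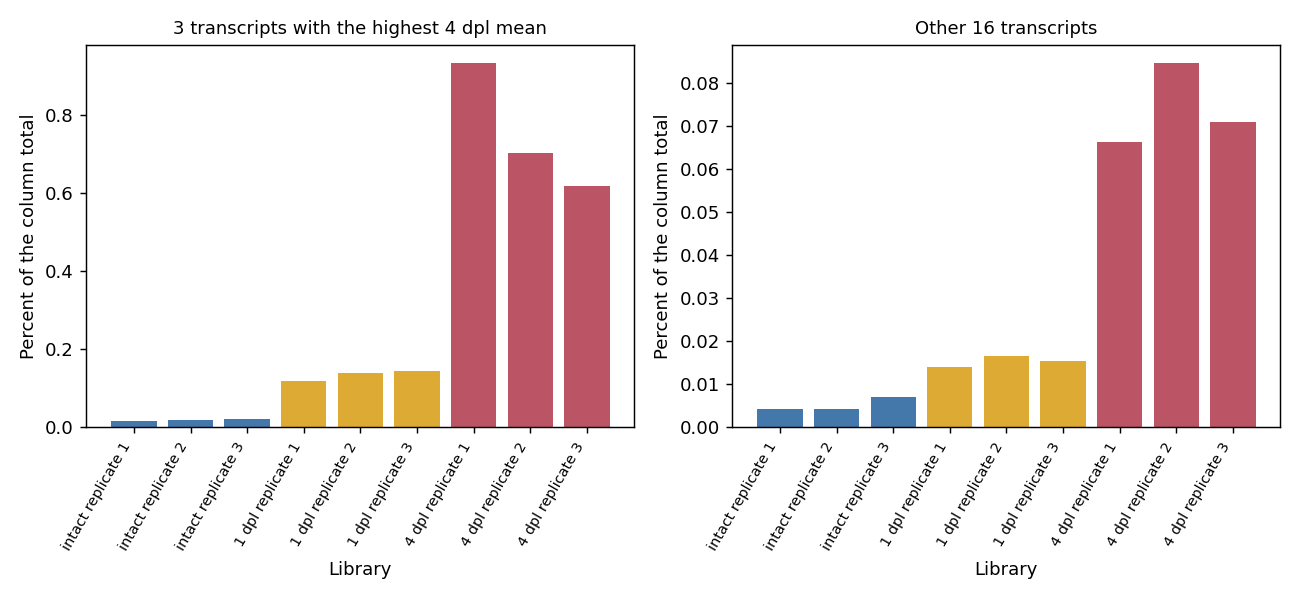
Percent of the column total held by the 3 transcripts of highest 4 dpl mean (left) and by the other 16 (right), 1 bar for each library, with axes of different scale. The shares step up from intact to 1 dpl and to 4 dpl in both panels, and the highest 4 dpl bar is replicate 1 on the left and replicate 2 on the right.

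The sizes of the steps also varied among the transcripts. The first step ranged from 1.08 to 6.58 with a median of 2.83, and the second from 1.35 to 4.93 with a median of 2.52. The first step was the larger in 13 transcripts and the second in 6, and in 5 of the 19 they differed by less than 0.25. The order of the medians depended on the setting. With log2(value + 10) in place of log2(value + 1), the median first step was 1.99 and the median second step 2.48. Without 1 dpl replicate 2 they were 2.59 and 2.61, and without any other single library the median first step was the larger. As ratios of means, the first step had a median of 6.31-fold over the 16 transcripts above 0 in both intact libraries, and the second a median of 5.73-fold over all 19. From intact to 4 dpl the ratio lay between 6.77-fold and 2927-fold, with a median of 26.02-fold over the 16. The standard deviation of log2(value + 1) had a median of 0.44 between intact libraries, of 0.44 between 1 dpl libraries and of 0.27 between 4 dpl libraries, and it reached 2.02 in the intact group. The rule admits only transcripts whose groups are set apart from each other, so that nothing is read from the size of the steps relative to this spread.

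Among the 19, transcripts with a large first step also tended to have a large second step. Across the 19, Pearson's r between both steps was 0.82 and Spearman's rho was 0.77. This is a correlation across transcripts, which are not independent replicates, and the 1 dpl libraries enter both steps with opposite sign. The rule chose the transcripts by both steps and by a minimum 4 dpl value, so that those of low intact value must have a large total rise. The transcripts of rank 2 and rank 3, which may not be independent measurements, had the largest first and second steps. How far the choice shaped the correlation was not tested, so that nothing is read from its size or sign. Between the final level and the total rise, Spearman's rho was 0.22 over the 19. mRNA109311 had the highest final level and a total rise of 4.63, below the median of 5.28.

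By the second step, the transcripts fell into 9 with a step above 3, 9 with a step under 2 and a single one in between, the transcript of rank 5 with 2.52. This division was made after the values were seen. The 9 with the larger second step had mean intact values of at most 28.5, and their first steps lay between 2.29 and 6.58. The 9 with the smaller second step included mRNA109311 and had mean intact values between 8.98 and 3446, with first steps between 1.08 and 3.84. In 8 of these 9, the first step was the larger of the pair. That of rank 17 was the most uneven, with a first step of 3.84 and a second of 1.44. At the other end, the transcript of rank 6 had a first step of 2.29 and a second of 3.37.

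**Figure D3:**
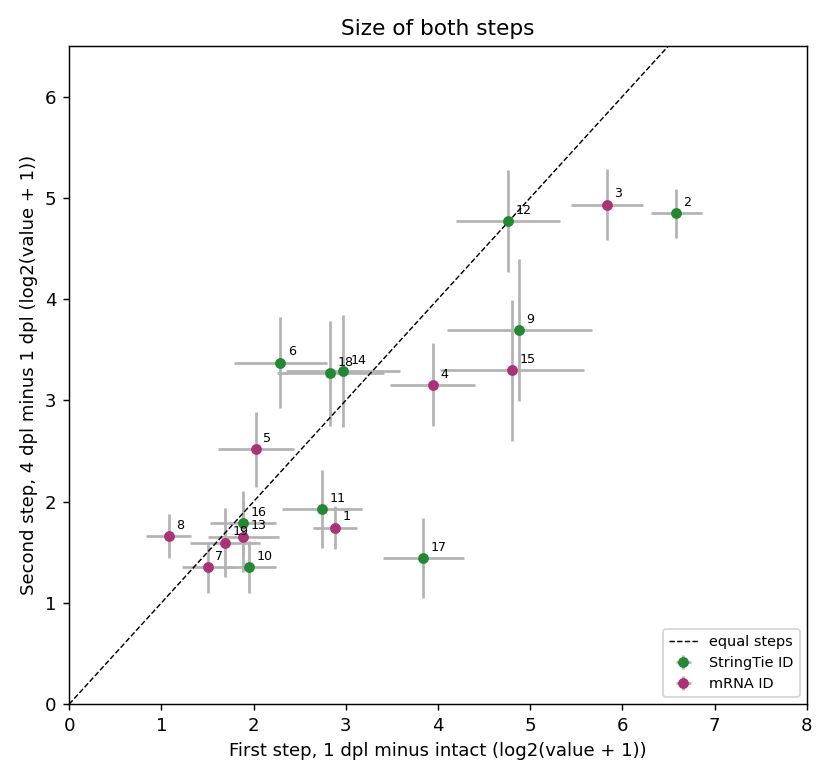
First step against second step for each of the 19 transcripts, both as differences of group means of log2(value + 1), with standard errors from limma as bars, the rank beside each point and a dashed line where both steps are equal. The transcripts of rank 2, 3 and 12 lie at the upper end of the second step (4.77 to 4.93), and 13 of the 19 lie below the line.

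On the linear scale, most of the gain came after 1 dpl, which the second step of the rule fixes in advance for each transcript. The part of the gain from intact to 4 dpl that was present at 1 dpl ranged from 3.36% to 35.0%, with a median of 13.8%. An equal gain on each of the days would place 25% of it at 1 dpl, if the intact value is taken as the value at lentectomy. The gain per day was higher after 1 dpl than before it in 13 of the 19 transcripts, and in 12 to 15 of them without one of the 8 libraries. For mRNA143775 and the transcripts of rank 2 and rank 12, less than 4% of the gain was present at 1 dpl. mRNA109311 had a gain of 22154 by 1 dpl and of 21136 per day over the 3 days that followed. The gain per day after 1 dpl was thus slightly the lower, and without 4 dpl replicate 1 it fell to 14645. It lay above the gain of the first day without 1 dpl replicate 3, 4 dpl replicate 2 or 4 dpl replicate 3. Without any other single library it lay below. Rank 17 had the highest part at 1 dpl, and in the transcripts of rank 10 and rank 7 it was 32.2% and 28.8%. For rank 11, the mean of 25.3% came from 1 dpl libraries that lay far apart, with values of 118, 273 and 288.

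**Figure D4:**
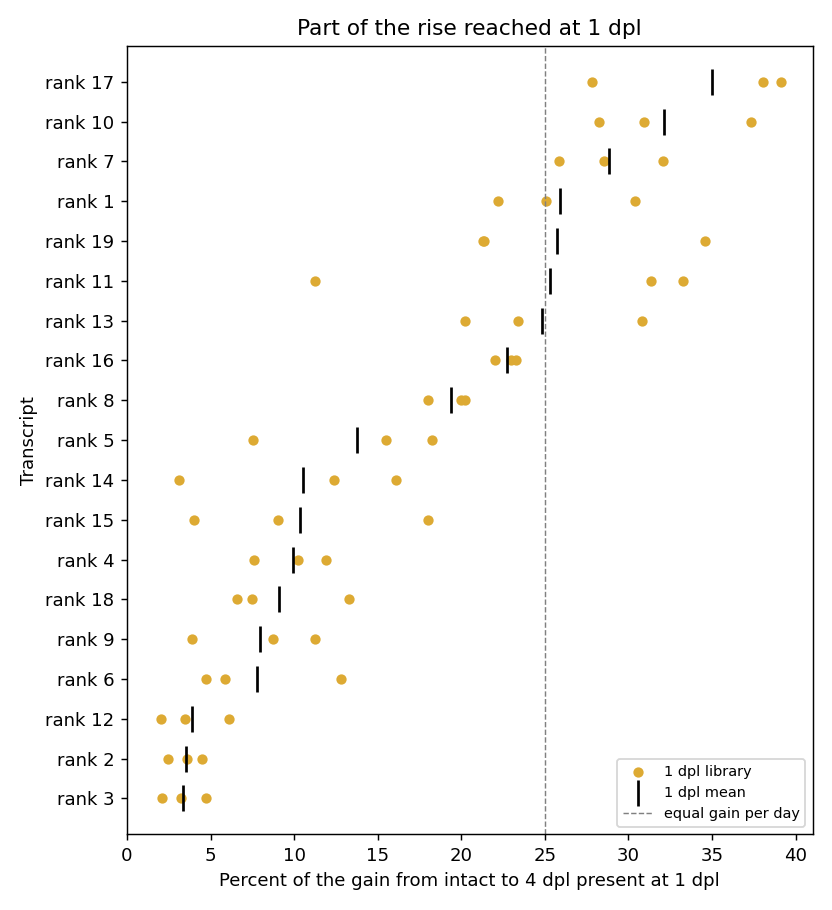
Percent of the gain from the intact mean to the 4 dpl mean that was present in each 1 dpl library (points) and in the 1 dpl mean (black bars), with a dashed line at 25%, where the gain per day would be equal. The 9 transcripts with a second step above 3 lie between 3.36% and 10.5%, and those with a second step under 2 lie between 19.4% and 35.0%. Both measures come from the same values, so that a larger second step by itself leaves a smaller percent at 1 dpl.

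The order of the libraries within a group differed from transcript to transcript. Among the 1 dpl libraries, replicate 1 had the lowest value for 13 of the 19 transcripts, whereas replicates 2 and 3 had it for 3 each. Over all transcripts with a 1 dpl mean of at least 20, replicate 1 was the lowest in 32.6%. Among the 4 dpl libraries, the highest value came from replicate 1 in 7 transcripts, from replicate 2 in 8 and from replicate 3 in 4. How often each library was the highest over all transcripts was not calculated. The transcripts of rank 4, 5 and 6 shared one order, with replicate 2 highest and replicate 1 lowest. For mRNA109311 and mRNA143775, replicate 1 was the highest and replicate 3 the lowest. The closest agreement at 4 dpl was that of the transcript of rank 11, with values of 817, 827 and 767, and at 1 dpl that of rank 16, with values of 120, 125 and 123.

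The thresholds cut through a continuous range of values. The 3 lowest of the lowest 4 dpl values were 214, 279 and 328, and the transcripts that failed at this point alone, 15 in number, came up to 193. For the first step, measured as the lowest 1 dpl value over the highest intact value plus 1, the closest transcripts inside were those of rank 8, 7 and 5 with 2.02, 2.06 and 2.07. Those that failed the first step alone numbered 464, and the closest had 1.93, 1.90 and 1.85. For the second step the closest inside were the transcripts of rank 10, 17 and 13 with 2.03, 2.13 and 2.14, and 930 failed the second step alone, the closest with 1.99, 1.96 and 1.92. The closest but one of these had mean values of 15670 in the intact iris, 59382 at 1 dpl and 141810 at 4 dpl, a higher level than that of mRNA109311. Among the 949 transcripts with a first step and 4 dpl values of at least 200, 19 also had the second step, and among the 9261 with such 4 dpl values but no first step, 464 did (5.01%). By the same rule in reverse, 14 transcripts fell in a pair of steps from an intact value of at least 200.

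In a limma model of log2(value + 1) over all 154825 transcripts whose mean was 0.5 or higher, 12 of the 19 were called higher at 1 dpl than in the intact iris at a Benjamini-Hochberg adjusted p under 0.05, beside 0.971% of all transcripts tested. All 19 were called higher at 4 dpl than in the intact iris, beside 1.37%, and 11 were called higher at 4 dpl than at 1 dpl, beside 0.406%. The transcripts had been chosen for these differences, so that nothing is read from the counts. Over all tested transcripts, the median difference was 0.03 for 1 dpl over intact, -0.12 for 4 dpl over intact and -0.24 for 4 dpl over 1 dpl. The first count was 7 without 1 dpl replicate 2 and 7 without 1 dpl replicate 3. Over all tested transcripts, 820 and 946 were then called higher, compared with 1504 in the fit of 8 libraries. The count for 4 dpl over 1 dpl was between 3 and 6 without any one of the 1 dpl or 4 dpl libraries. Over all tested transcripts, between 161 and 358 were then called higher, compared with 628.

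Intact replicate 3 was the only library that had no part in the choice. Its value lay below the lowest 1 dpl value for 18 of the 19 transcripts. The same held for 84.2% of the 3669 transcripts that met the first step in the other libraries, and for 97.5% of the 949 that also had 4 dpl values of at least 200. The exception was the transcript of rank 12, listed at 0 in the other intact libraries, at 48.4 in intact replicate 3 and at no more than 45.2 at 1 dpl. However, intact replicate 3 had the smallest column total. With all libraries scaled to one total, 15 of the 19 lay below the lowest 1 dpl value, and with median-of-ratios scaling 18 did. The shares of the 3669 and the 949 were not recalculated with scaling. Intact replicate 3 lay above both other intact libraries for 13 of the 19, a share of 68.4%, compared with 50.8% and 28.3% in the same sets of 3669 and 949. It held 3710 of mRNA109311, close to the 3277 and 3615 of the other intact libraries, and 28.7 of mRNA143775, against 12.4 and 5.87. For the transcript of rank 2 it held 123, against 19.5 and 14.4. With this library counted as intact, 13 of the 19 transcripts still met the rule, and those of rank 6, 8, 10, 11, 12 and 14 did not. Its alignment rate, for which the study excluded it, was not analysed here.

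Of the 19 transcripts, 10 carried StringTie IDs and 9 carried mRNA IDs. The 10 correspond to 52.6%, compared with 35.1% of all transcripts with 4 dpl values of at least 200 and 45.8% of the whole table. StringTie numbers the transcripts of an assembled gene, so that for these 10 the table shows whether other transcripts were assigned to the same gene. For 6 of them it listed none, and for 4 it listed 13 others in all. Salmon divides reads among the transcripts of a gene, so that the 13 are not independent of the 19.

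In the model, 3 of the 13 were called higher and 1 lower at 1 dpl than in the intact iris, beside 0.971% and 0.372% of all transcripts called in these directions. At 4 dpl, 4 were called higher and 1 lower than in the intact iris, beside 1.37% and 0.651%. Between 4 dpl and 1 dpl, 1 was called higher, beside 0.406%. This was the only other transcript in the gene of rank 18, with 3.86 at 1 dpl and 58.5 at 4 dpl (log2 difference 3.73, adjusted p = 0.0467 from limma). It was no longer called when any one of the 8 libraries was left out. Without 1 dpl replicate 1, another of the 13 was called lower. At 4 dpl over intact, 3 of the 13 were called without intact replicate 1 and without intact replicate 2, and 2 without 4 dpl replicate 1 and without 4 dpl replicate 3. At 1 dpl over intact, 2 were called without intact replicate 1, without any one of the 1 dpl libraries and without 4 dpl replicate 3.

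The 4 genes with other transcripts differed in how much of the gene the stepwise transcript made up. In the gene of rank 18 it held 86.6% ± 1.51 (SD, n = 3) at 4 dpl, and in that of rank 16 it held 72.0% ± 4.85 (SD, n = 3). In the gene of rank 10 it was a minor form, with 0.446% ± 0.0226 (SD, n = 2) of the gene in intact replicates 1 and 2, 1.42% ± 0.124 (SD, n = 3) at 1 dpl and 4.13% ± 0.626 (SD, n = 3) at 4 dpl. In intact replicate 3, which is not part of these means, it held 1.34%, within the 1 dpl range of 1.28% to 1.52%. The sum of that gene was 20401 ± 2030 (SD, n = 2) in the intact iris, 25126 ± 2371 (SD, n = 3) at 1 dpl and 22114 ± 1104 (SD, n = 3) at 4 dpl. All 1 dpl libraries lay above both intact ones, and the 4 dpl libraries overlapped with the intact ones, so that the sum of the gene did not climb stepwise. The sums of the genes of rank 16 and rank 6 rose without overlap between groups, but they also missed the rule. For rank 16 the lowest 4 dpl sum was 487 and the highest 1 dpl sum 265, and for rank 6 they were 12766 and 11424. Of the 4 genes, only that of rank 18 met the rule as a sum.

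The gene of rank 6 was the most complex, with 9 other transcripts, and its mean sum went from 4988 ± 95.7 (SD, n = 2) in the intact iris to 10265 ± 1743 (SD, n = 3) at 1 dpl and 14532 ± 2622 (SD, n = 3) at 4 dpl. The stepwise transcript held 0.573% ± 0.187 (SD, n = 2) of the sum in intact replicates 1 and 2, 1.57% ± 1.02 (SD, n = 3) at 1 dpl and 11.4% ± 6.51 (SD, n = 3) at 4 dpl. In intact replicate 3, which is not part of these means, it held 2.32%, within the 1 dpl range of 0.917% to 2.75%. The other form that was most abundant at 4 dpl had values of 13.3 and 106 in intact replicates 1 and 2, of 2624, 4004 and 2702 at 1 dpl, and of 9720, 5704 and 6060 at 4 dpl. In intact replicate 3, which the model did not use, this form had a value of 701. It was higher at 1 dpl by 6.28 (standard error 0.67, adjusted p = 0.00262 from limma), and although its 1 dpl and 4 dpl libraries did not overlap, its second step of 1.19 was not called (adjusted p = 0.579 from limma). Another form took the opposite course, with 2137 and 1615 in intact replicates 1 and 2, 82.7, 88.2 and 90.2 at 1 dpl and 37.2, 43.6 and 21.8 at 4 dpl (log2 difference at 1 dpl -4.40, standard error 0.42, adjusted p = 0.00147 from limma). Its value in intact replicate 3 was 503. A further form was highest at 1 dpl, with values of 2043, 3861 and 4857, against 1402, 1182 and 858 at 4 dpl, but this difference was not called (adjusted p = 0.0729 from limma).

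**Figure D5:**
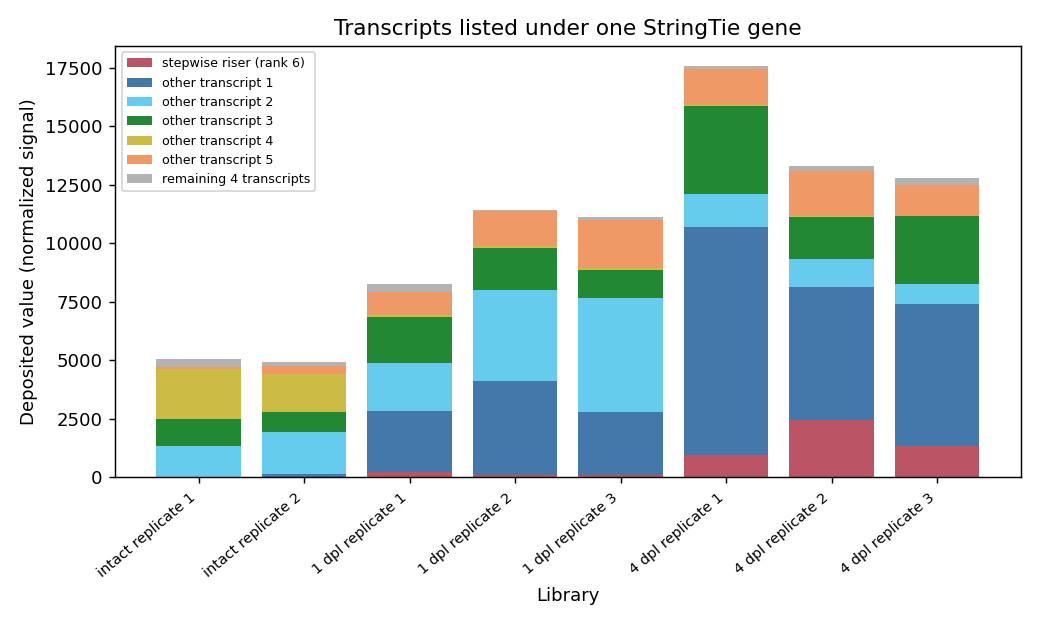
Values of the transcripts listed under the StringTie gene of rank 6, stacked for each of the 8 libraries; the stepwise transcript is at the bottom, followed by the 5 other transcripts of highest value and the sum of the remaining 4. The bottom part grows to values of 964, 2444 and 1330 at 4 dpl, while other transcript 4, the largest part of intact replicate 1, is at 90.2 or less after lentectomy.

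Among the transcripts with mRNA IDs, that of rank 15 was listed between rows of a single StringTie gene. The 4 transcripts of this gene had mean intact values of at most 0.707 and mean 4 dpl values of 64.2, 41.9, 15.1 and 16.3, all below the 472 of the transcript of rank 15. The highest of them had values of 129, 14.0 and 49.3 in the 4 dpl libraries. This is the order of the libraries found for the transcript of rank 15, with replicate 1 highest and replicate 2 lowest. The transcript with a mean of 15.1 had 18.8, 6.19 and 20.2, with replicate 3 highest, and the remaining ones had the order of rank 15. Whether the rows belong to one gene is not stated in the table.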

How the data were processed

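RNA from dorsal iris tissue was sequenced with a directional polyA kit in 9 libraries. The authors trimmed reads with Trim Galore, aligned them with STAR, used StringTie to assemble transcripts and Salmon to quantify these, with correction for sequence and GC bias. Their versions are not given in the sources used here. The deposited values are a normalized signal per transcript and library, named average TPM. The study's methods describe averages of TPM over the inferential replicates that Salmon draws; no value above 0 is a whole number, so that no test of counts was run and the depth behind each value is unknown.

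The 19 transcripts and the tests were chosen with earlier results of these data known. Columns were assigned to libraries by name. Step sizes are differences of group means of log2(value + 1). The limma fit (3.58.1, R 4.3.3; lmFit, eBayes with an intensity trend) had all groups in one model; it was tested on simulated data. Libraries of one group are stated to be biological replicates. Design and alternatives had been written for values in TPM and were kept. IDs were printed for at most 2 transcripts, those of highest 4 dpl mean and of largest smaller step, because no names are paired with them. Other transcripts were described by rank. Python used pandas 2.3.3 and matplotlib 3.10.9. Alternatives changed the offset, fold and floor of the rule, the pseudocount, minimum value, scaling, trend and block of the fit, and the libraries included.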

Additional observations from a re-analysis of the deposited data

Results flagged for a closer look

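Intact replicate 3, which was not used to choose the 19 transcripts, held more of them than the other intact libraries did. The 19 made up 0.0290% of its total, whereas intact replicates 1 and 2 held 0.0214% and 0.0230%. Without the 3 transcripts of highest 4 dpl mean, the other 16 made up 0.00702%, against 0.00424% and 0.00437%. Both shares were below those of every 1 dpl library, which were at least 0.132% and 0.0141%. The transcripts had been chosen for low values in intact replicates 1 and 2. Groups of 3 libraries are too small for a test of single outlying libraries.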

How the results depend on the processing

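Of 259 recalculated results, 194 kept their size or call and 60 moved. A further 5, all of mRNA109311, kept their direction but were no longer called. No direction reversed, but the rule fixes the direction of the steps in the 8 libraries in advance, so that nothing is read from this. A count was taken as kept when it lay within 1.5-fold of the main one, and counts have no direction. Part of the 194 could not change, such as the first step without a 4 dpl library or the share at 4 dpl without an intact library. The rule found 11 transcripts with an offset of 10 in place of 1, 84 with a minimum fold of 1.5 and 7 with one of 3. By construction, fewer libraries loosen the rule: without one library at a time it found between 21 and 32, all 19 among them. It found 21 with all libraries scaled to one total and 21 with median-of-ratios scaling, with 16 and 18 of the 19 among them. With values summed per StringTie gene it found 16, all of them from the 19. The median first step was 1.99 with a pseudocount of 10, 2.53 with intact replicate 3 added, and between 2.59 and 2.98 without one library. The median second step was 2.59 with median-of-ratios scaling and between 2.24 and 2.71 without one library. The share at 4 dpl was 0.0739% without the 3 highest transcripts, an alternative chosen after seeing the data, and between 0.739% and 0.894% without one library. Leaving out single libraries from the gain per day was also chosen after seeing the data. Of the 19, the model called 3 for 1 dpl over intact and 3 for 4 dpl over 1 dpl without the intensity trend, and 19 and 18 with a minimum mean value of 20. Over all tested transcripts, 116 and 70 of 154825 were called higher without the trend, and 2782 and 1549 of 45047 with that minimum. Without one of the 1 dpl or 4 dpl libraries, the counts of the 19 lay between 7 and 11 and between 3 and 6. Over all tested transcripts, between 820 and 1224 and between 161 and 358 were then called higher. Without the trend, the model called 1 of the 13 other transcripts of the same StringTie genes for 1 dpl over intact, as lower. For 4 dpl over intact it called 1 as higher and 1 as lower, and for 4 dpl over 1 dpl it called 0. For 4 dpl over 1 dpl, where 1 was called as reported, it called 0 without a minimum value and 0 with a pseudocount of 0.1. With a minimum mean value of 20, where 10 of the 13 were tested, it called 1 higher and 1 lower. With intact replicate 3 added it also called 1 higher and 1 lower. In fits with a single intact library, it was assumed to vary like the other groups. Without one library, the counts for the 13 lay between 2 and 3, between 2 and 5 and between 0 and 1 (the 1 a fall, in another transcript). With a block for the replicate number, 6, 19 and 6 of the 19 were called for 1 dpl over intact, 4 dpl over intact and 4 dpl over 1 dpl, and 3, 3 and 0 of the 13. Over all 154825 transcripts, 792, 1184 and 318 were called higher with the block, and 214, 518 and 191 lower. Deviations from group means correlated by -0.0806 to 0.0048 between same-numbered libraries, so that no pairing by number was seen. Groups this small cannot decide whether the libraries were paired. The causes of the changes between settings were not tested.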
